A study of Rattus norvegicus with 20 samples.

Results

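The mir-30 family was followed across 15 tissues and the serum of untreated male Long Evans rats, an outbred strain, killed at postnatal day 35. Its members were taken by name from the miRBase 21 precursor list, and their 5p and 3p arms from the mature list. Of 6 precursors in the family, rno-mir-30a, rno-mir-30c-1, rno-mir-30c-2, rno-mir-30d and rno-mir-30e (rno for Rattus norvegicus, left out below) were analysed, and rno-mir-30b was not analysed here. These were 5 of 444 precursors and, as arms, 9 of 577 mature miRNAs. The study sequenced small RNA from 3 brain hemispheres, each run on its own, from 3 samples of serum and from 14 further tissues, where 3 rats were combined into 1 library per tissue. The 14 pools were fat, heart, kidney, large intestine, liver, lung, skeletal muscle, pancreas, skin, small intestine, spleen, stomach, testes and thymus. The animals are controls of an alcohol study, and none of them was given alcohol or any other treatment. A pool has no replicate, so its values carry counting error only, and a lower level in a whole tissue cannot be told apart from fewer cells that hold the miRNA.

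A microRNA is cut from a hairpin precursor, and 1 strand (an arm, 5p or 3p) is loaded into an Argonaute protein, which it guides to messenger RNAs that pair with its seed, bases 2 to 8. Members of a family share a seed and so can bind overlapping sets of targets. The mir-30 family is broadly expressed, is abundant in kidney, lung and heart, and is known for roles in cell differentiation and in limiting fibrosis.

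The sequences below carry the family's identity and the places where its members can be told apart. They come from RefSeq on the GRCr8 build, in which 6 of the 9 arms had a sequence, and the seed is in capitals. The arms of mir-30d and miR-30e-3p are named only. miR-30a-5p lies at chr9:33233946-33233967 on the plus strand and miR-30e-5p at chr5:139637504-139637525 on the minus strand. miR-30c-5p is cut from both mir-30c hairpins, at chr5:139634505-139634527 (minus strand, mir-30c-1) and chr9:33253695-33253717 (plus strand, mir-30c-2).
miR-30a-5p: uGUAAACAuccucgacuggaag
miR-30e-5p: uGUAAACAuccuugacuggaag
miR-30c-5p: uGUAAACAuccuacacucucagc
miR-384-5p: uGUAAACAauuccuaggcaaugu
The 5p seed GUAAACA was found in 4 of 693 mature names of the table, the 3 family arms and miR-384-5p at chrX:74490939-74490961 on the minus strand. Counted from the 5′ end, miR-30a-5p and miR-30e-5p differed at 1 of 22 bases, C13U. miR-30a-5p and miR-30c-5p were the same over the first 12 bases and differed at 5, C13A, G14C, G18C, G19U and A20C. miR-384-5p shared the first 8 bases with miR-30a-5p and differed at 10.

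The 3p arms are shown because they separate the mir-30c hairpins, which the shared 5p arm cannot. miR-30a-3p lies at chr9:33233987-33234008 and miR-30c-2-3p at chr9:33253735-33253756, both on the plus strand, and miR-30c-1-3p at chr5:139634467-139634488 on the minus strand.
miR-30a-3p: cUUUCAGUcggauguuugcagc
miR-30c-1-3p: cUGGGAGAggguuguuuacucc
miR-30c-2-3p: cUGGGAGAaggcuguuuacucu
The mir-30c 3p arms had a common seed and differed at 3 bases, G9A, U12C and C22U. Their hairpins are given below with the annotated arms in capitals, mir-30c-1 at chr5:139634455-139634543 and mir-30c-2 at chr9:33253682-33253765.
mir-30c-1: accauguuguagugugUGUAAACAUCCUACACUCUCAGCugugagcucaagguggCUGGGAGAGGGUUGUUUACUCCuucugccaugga
mir-30c-2: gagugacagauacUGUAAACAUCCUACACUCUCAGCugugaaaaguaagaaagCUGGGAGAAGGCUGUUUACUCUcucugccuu
The members lie in pairs. Mir30a and Mir30c2 were 19670 bases apart on chromosome 9, and Mir30c1 and Mir30e were 2906 bases apart on chromosome 5, both inside the span of Nfyc, which encodes a subunit of the CCAAT-binding factor NF-Y. Mir30d is on chromosome 7.

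The depth of the libraries bears on every value. Precursor reads numbered 388275 to 1204552 in brain, 162080 to 3685761 in the pools and 7556 to 10862 in serum, so that a level under 276 to 397 RPM (reads per 1000000 reads of the same annotation list) fell below 3 reads in a serum library. Reads of a small RNA library each stand for 1 short molecule, and levels were not divided by length. Brain, heart, skeletal muscle, testes, skin, spleen and thymus held the markers of their labels, such as mir-9a in brain, mir-208a in heart and mir-34c in testes. The library labelled pancreas did not. The acinar precursors mir-216a and mir-217 had 0 reads there, hepatocyte mir-122 stood at 14862 RPM against 14726 RPM in liver, and its profile was closest to liver, with r = 0.969 over precursors. Where a range over the pools ends at this library, the value without it is given beside it. The same was done for the main correlation between member ratios and for the precursors most like the family. The other correlations include this library.

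Taken as a sum, the 5 precursors made up between 1.90% and 13.0% of precursor reads, a 6.83-fold span. The family was highest in heart at 13.0% and kidney at 12.2%, followed by skeletal muscle at 9.85% and lung at 9.51%. The library labelled pancreas had 6.58%, testes 6.34%, liver 6.04% and brain 5.99% ± 0.37 (SD, n = 3). Spleen had 5.16%, thymus 4.31%, fat 3.78%, skin 3.48%, stomach 2.51%, small intestine 2.27% and large intestine 1.90%. Liver lay inside the range of the 3 hemispheres, 5.56% to 6.23%. Every other pair of neighbours in this order had intervals that did not overlap (Wilson 95%, counting error only).

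On the mature list the order began with kidney at 6.37%, lung at 4.51%, testes at 3.99% and heart at 3.41%, and it ended with large intestine at 0.676% and small intestine at 0.649%, which overlapped. Brain, at 2.11% ± 0.38 (SD, n = 3), overlapped spleen at 1.89%. The orders on the 2 lists had a Spearman rho of 0.929 over 15 tissues. Kidney was first or second, and heart among the first 5, under each of the 9 combinations of list and scaling that were computed.

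The lower end of the order depended on the scaling. Single miRNAs took large shares of the gut libraries. mir-143, typical of smooth muscle, stood at 611902 RPM in stomach, and mir-192, typical of gut and liver epithelium, at 324177 RPM in small intestine. With edgeR's trimmed-mean (TMM) scaling the lowest precursor sums were those of spleen, skin and fat, and stomach moved from rank 13 to rank 9. Brain, at rank 8 by library totals on both lists, moved to rank 12 with TMM and rank 15, the last, with DESeq2 size factors on the precursor list, and to rank 14 with either scaling on the mature list. With mir-143 and mir-192 taken out of the precursor total, an alternative chosen after the data were seen, large intestine stayed last, the next lowest were skin and fat, and the span was 3.94-fold.

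**Figure D1:**
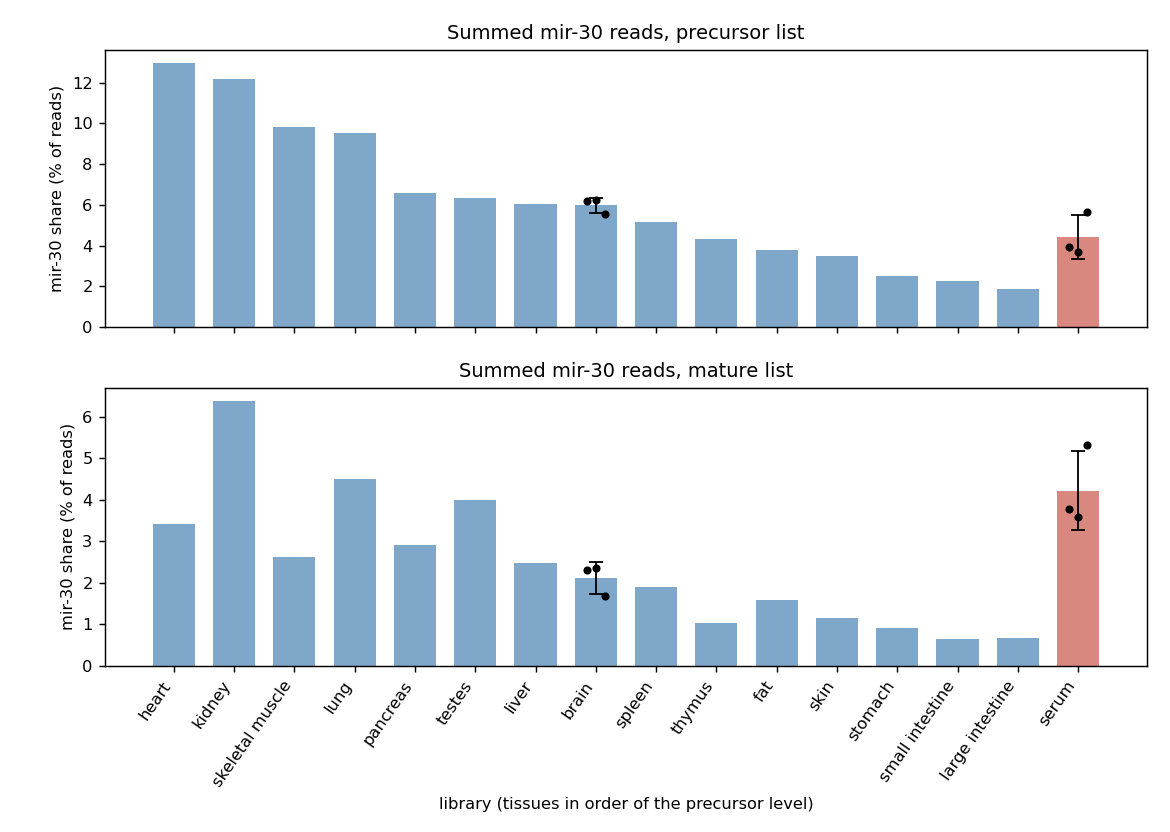
Summed mir-30 reads as a percentage of all precursor reads (top) and all mature reads (bottom), for 15 tissues in order of the precursor value and for serum. Bars are single pools or means of 3 libraries, with points for the libraries and error bars of 1 SD; on the precursor list brain stood at 5.99% and serum at 4.43%, and on the mature list brain stood at 2.11% and serum at 4.22%.

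On the precursor list mir-30a was the most abundant member in 14 of the 15 tissues. It was highest in kidney at 85785 RPM, where it ranked 4 among all precursors, and stood at 67191 RPM in heart and 66949 RPM in lung. Its lowest levels were 10300 RPM in large intestine, 10403 RPM in small intestine and 10832 RPM in thymus. The 3 hemispheres had 31864, 31702 and 28441 RPM.

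mir-30e, from the chromosome 5 pair, had another order. Heart was highest at 42785 RPM, and thymus came second at 27022 RPM, above kidney at 26389 RPM. Lung, the third tissue for mir-30a, was next to last for mir-30e at 5420 RPM, with large intestine at 5129 RPM. The hemispheres held 15573, 15658 and 13887 RPM.

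mir-30d was highest in lung at 20160 RPM and skeletal muscle at 18900 RPM. Kidney, where mir-30a peaked, had 4689 RPM of mir-30d, and large intestine had the lowest level at 2543 RPM. The hemispheres held 10802, 11049 and 10263 RPM.

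mir-30c-2 ran from 919 RPM in large intestine to 7016 RPM in heart, and mir-30c-1 from 64.2 RPM in stomach to 464 RPM in heart. In brain mir-30c-2 had 3224, 3568 and 2748 RPM, and mir-30c-1 had 315, 350 and 268 RPM. Brain was second of the 15 tissues for mir-30c-1, with a mean of 311 RPM. The split between these hairpins on the precursor list is uncertain, because they share the 5p arm and how reads that match both were assigned is not given in the sources used here. The same holds, to a lesser degree, for mir-30a and mir-30e, whose 5p arms differ at 1 base.

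**Figure D2:**
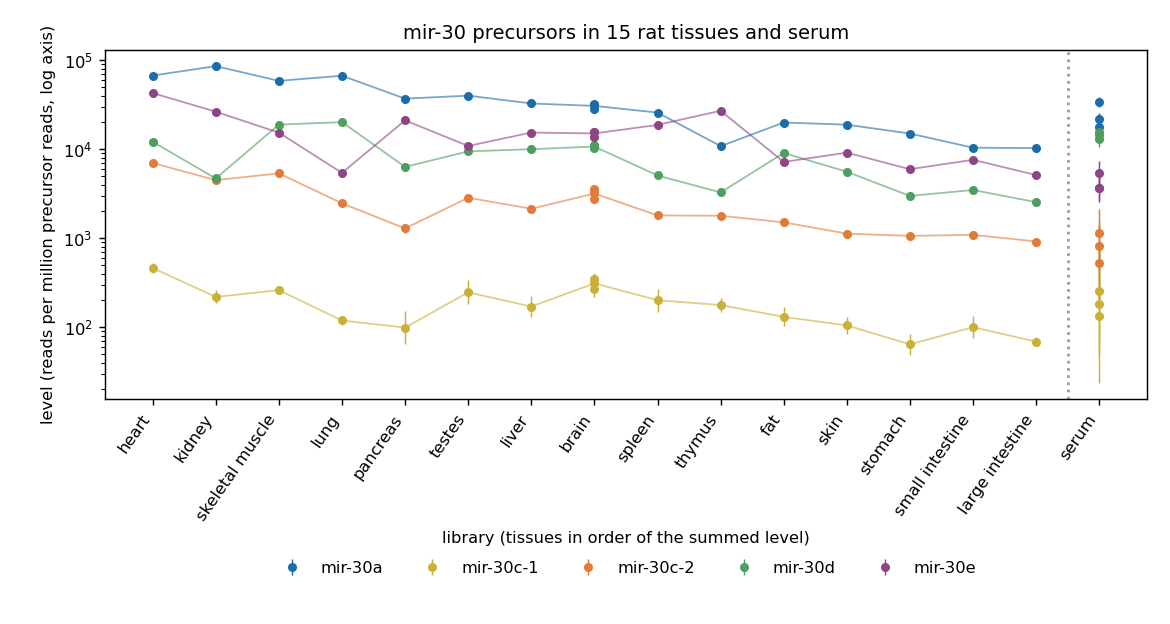
Level of each mir-30 precursor in RPM of precursor reads (log axis) by tissue, ordered by the summed level, with serum to the right of the dotted line. Points are libraries with Wilson 95% intervals, and lines join the tissue means; mir-30e crossed above mir-30a in thymus, at 27022 against 10832 RPM.

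All 5 members had at least 10 reads in all 15 tissues (brain as the mean of its hemispheres), as did 101 of the 295 precursors that passed the count filter (at least 10 reads in at least 3 libraries). The range of each member over the tissues, on log2(RPM + 1), was 2.83 to 3.06 with a median of 2.99, against a median of 5.64 over the 295. The 295 include precursors that were not present in every tissue. Counted from the narrowest range, the members stood at places 17 (mir-30c-1) to 33 (mir-30e), and others such as mir-26a, at 2.24, were narrower. With TMM scaling the members' ranges were 2.65 to 3.65. Members that the filter passed did not owe it to 1 tissue, since each was present throughout.

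The make-up of the family varied more than its presence. mir-30a held 45.9% to 70.6% of the 5 precursors' reads in 13 pools, with kidney at 70.6% and lung at 70.4% highest. In thymus it held 25.1%, and mir-30e held 62.7%. Outside thymus, the mir-30e share ran from 5.70% in lung to 36.3% in spleen. mir-30d held 3.86% in kidney and 24.0% in fat, the lowest and highest pools. mir-30c-2 held 1.96% (the pancreas library, with 2.59% in lung the next lowest) to 5.44%, and mir-30c-1 at most 0.44%, in the pools. All these shares are from the precursor list. On the mature list thymus had the opposite order of mir-30a and mir-30e. miR-30a-5p and miR-30a-3p had 3233 and 43 reads there, and miR-30e-5p and miR-30e-3p had 659 and 655. In thymus the mature arms held 45.9% of the mir-30a and 7.38% of the mir-30e precursor reads.

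**Figure D3:**
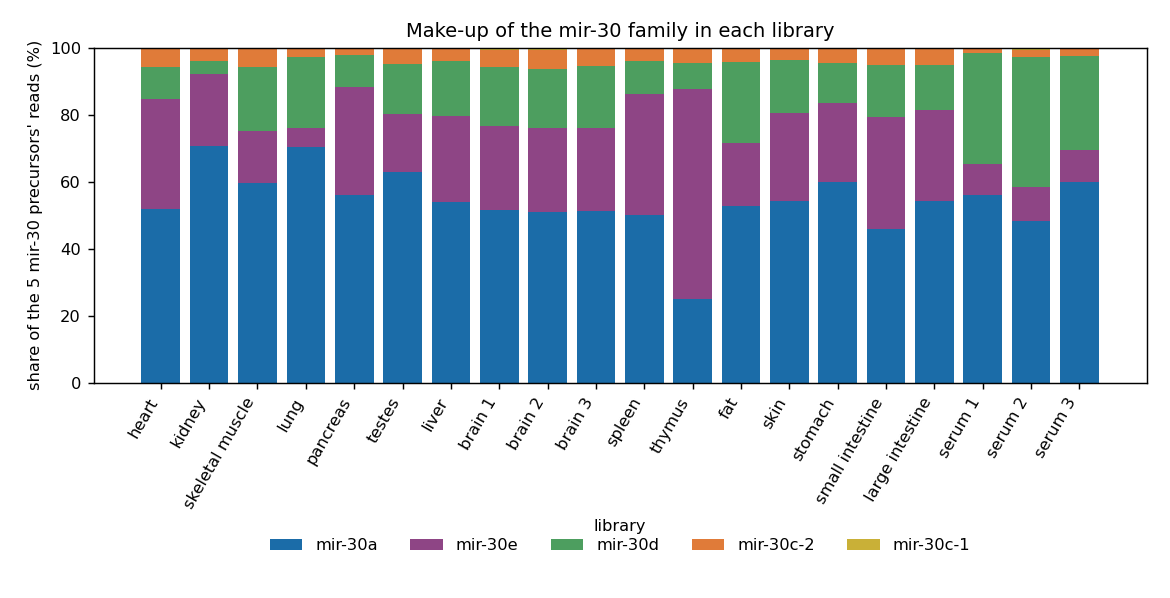
Share of each member in the reads of the 5 mir-30 precursors, in percent, stacked for each of the 20 libraries. Thymus stands apart with 62.7% mir-30e, lung has the smallest mir-30e share of the tissues at 5.70%, and the 3 serum libraries have the largest mir-30d shares, 27.9% to 38.9%.

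Ratios between members do not depend on the scaling of the libraries. On the precursor list the ratio of mir-30a to mir-30e was 0.40 in thymus and 12.4 in lung. Its median over the 14 pools was 2.09, and the 3 hemispheres had 2.05, 2.02 and 2.05. Spleen, another lymphoid organ, had 1.38, which was close to small intestine at 1.37. On the mature list the ratio of miR-30a-5p to miR-30e-5p was 4.91 in thymus, the lowest pool, and 83.6 in lung, the highest.

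The mir-30c 3p arms gave a second, separate reading of the same split, since miR-30c-2-3p comes from the hairpin beside Mir30a and miR-30c-1-3p from the hairpin beside Mir30e. Lung had 1828 reads of miR-30c-2-3p and 121 of miR-30c-1-3p, so that the chromosome 9 arm made up 93.8% of both (Wilson 95% interval 92.6% to 94.8%). Thymus had 12 and 70 reads, a share of 14.6% (8.57% to 23.9%), and spleen had 8 and 27 reads, a share of 22.9% (12.1% to 39.02%). Kidney had 124 and 50 reads (71.3%), skeletal muscle 341 and 127 (72.9%) and heart 153 and 119 (56.3%). In the hemispheres the counts were 194 and 188, 88 and 83, and 60 and 39, with shares of 50.8%, 51.5% and 60.6%. Lung and thymus were thus the extremes for both readings.

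Over the 15 tissues the log2 ratio of mir-30a to mir-30e had Pearson's r = 0.949 and Spearman's rho = 0.918 with the log2 ratio of miR-30c-2-3p to miR-30c-1-3p. Without lung and thymus r was 0.845, and without the pancreas library it was 0.949. The points share a library and its depth, though the ratios use separate arms and the sequences printed above differ at 3 bases between the 3p arms. With the 5p arms in place of the precursors (miR-30a-5p to miR-30e-5p) r was 0.919 and rho 0.775. The mir-30c ratio taken from the precursor list, where the hairpins share the 5p arm, gave r = 0.662. It was 8.95 in spleen and 20.7 in lung, a far narrower range than 0.171 to 15.1 for the 3p arms.

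**Figure D4:**
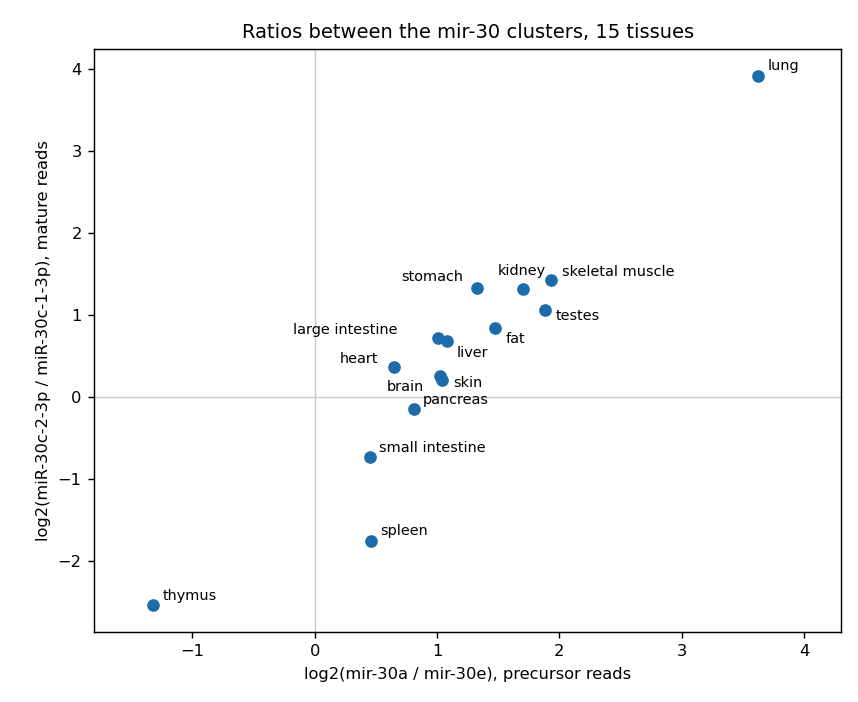
Log2 ratio of mir-30a to mir-30e (precursor reads, horizontal) against the log2 ratio of the miR-30c-2 and miR-30c-1 3p arms (mature reads, vertical), 1 point for each of 15 tissues, brain as the mean of its hemispheres. Thymus is lowest and lung highest on both axes, and r was 0.949.

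Levels of single members across tissues were also compared, on log2(RPM + 1). Over 15 tissues r was 0.899 for mir-30c-1 with mir-30c-2 (which share the 5p arm) and 0.823 for mir-30a with mir-30c-2, the neighbours on chromosome 9. For mir-30c-1 with mir-30e, the neighbours on chromosome 5, it was 0.738 (rho = 0.60), no higher than for mir-30a with mir-30d, which lie on different chromosomes, at 0.742 (rho = 0.721). mir-30c-2 with mir-30d, also on different chromosomes, had r = 0.671 and rho = 0.739. The value was 0.442 for mir-30a with mir-30e and 0.143 for mir-30d with mir-30e. The latter value was 0.406 without lung and skeletal muscle. These correlations share the library totals of each tissue.

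The precursors outside the family whose log2(RPM + 1) levels were most like those of the summed family were mir-322-1 with r = 0.731, mir-322-2 with 0.719, mir-3068 with 0.713, endothelial mir-126a with 0.701 and mir-26a with 0.678, over 15 tissues. With TMM scaling 3 of these, mir-26a, mir-3068 and mir-126a, remained among the first 5. mir-322-1 and mir-322-2, the highest by library totals, did not, and mir-22 and mir-26b took their places. Without the pancreas library all 5 remained.

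The arm that carried the reads differed between members. miR-30a-5p made up 94.1% ± 0.8 of the reads of both miR-30a arms in brain (SD, n = 3) and 94.1% ± 1.0 in serum (SD, n = 3). In the pools it ran from 81.7% in skeletal muscle (11187 reads of the 5p and 2511 of the 3p arm, Wilson 95% interval 81.0% to 82.3%) to 98.7% in thymus (98.2% to 99.0%). Skeletal muscle was also the pool with the highest level of miR-30a-3p, 3059 RPM of mature reads, and thymus had the lowest, 81.3 RPM.

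miR-30d was read mostly from the 5p arm, 97.9% ± 0.6 in brain (SD, n = 3) and 87.9% (the pancreas library) to 98.5% (lung) in the pools. Without the pancreas library the lowest pool was small intestine at 91.2%. In serum no miR-30d-3p read was counted, in 51, 96 and 77 reads of both arms. The 0 of 224 reads allows a 3p share of up to 1.34%.

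miR-30e was divided more evenly between its arms. The 5p share was 34.2%, 37.5% and 36.6% in the hemispheres, 20.1% in skeletal muscle (18.5% to 21.8%) and 66.1% in spleen (60.8% to 70.9%). In serum it was 33.3%, 10% and 44.4%, from 6, 10 and 9 reads. The 5p shares of brain and serum overlapped for miR-30a and miR-30e, and did not overlap for miR-30d (97.3% to 98.4% in brain against 100% in each serum library). The exact two-sided permutation p was 1.0 for miR-30a, 0.7 for miR-30e and, for miR-30d, 0.1, which is the smallest that 3 against 3 libraries allow, so that no share could pass the threshold, with adjusted values (Benjamini-Hochberg over the 3 tests) of 1.0, 1.0 and 0.3.

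The mature list held far fewer reads of these hairpins than the precursor list. The 9 arms summed to 29.7% ± 3.8 of the precursors' reads in brain (SD, n = 3), a median of 27.4% in the pools (17.4% in skeletal muscle to 39.4% in lung) and 62.9% ± 1.4 in serum (SD, n = 3). For all miRNAs together the mature total was 84.7% ± 0.4 of the precursor total in brain, a median of 72.6% in the pools and 65.9% ± 2.2 in serum. By member, in brain, it was 38.7% for mir-30a, 32.6% for mir-30d, 19.3% for both mir-30c hairpins and 11.7% for mir-30e, and in serum it was 73.6%, 58.4%, 40.0% and 22.5%. Family levels from the 2 lists are thus not interchangeable, and the family's recovery on the mature list was higher in serum than in all 3 hemispheres (exact permutation test, two-sided, p = 0.1, adjusted p = 0.12 over 6 tests), while that of all miRNAs was lower. What the remaining precursor reads were was not tested.

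The study profiled tissues to look for possible origins of its miRNAs of interest, and it displayed their rat serum levels beside the tissues. The tests of brain against serum were made here. Serum and tissue RNA were purified with different kits, the miRNeasy Serum/Plasma and the miRNeasy Mini kit, so in every comparison below kit and sample type cannot be told apart. For the family sum the direction depended on the list. On the mature list the hemispheres had 2.31%, 2.35% and 1.67% and the serum libraries 3.77%, 3.57% and 5.33%, with no overlap. On the precursor list the hemispheres had 6.18%, 6.23% and 5.56% and serum 3.94%, 3.69% and 5.65%, and the groups overlapped. On the RefSeq list, which held the same member counts, brain had 6.17% ± 0.40 and serum 4.25% ± 1.11 (SD, n = 3 each), with no overlap. The exact two-sided permutation p-values were 0.1, 0.2 and 0.1, where 0.1 is the smallest possible, and 0.15, 0.2 and 0.15 adjusted over the 3 lists.

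The make-up of the family uses no library total. mir-30e held 25.21%, 25.12% and 24.97% of the family's reads in the hemispheres and 9.40%, 9.98% and 9.60% in serum. mir-30d held 17.5%, 17.7% and 18.5% in brain and 32.9%, 38.9% and 27.9% in serum. mir-30c-2 held 5.22%, 5.72% and 4.94% in brain and 1.34%, 2.24% and 2.01% in serum. In each of these 3 cases brain and serum did not overlap, and the exact permutation p was 0.1, the smallest possible, and 0.167 after adjustment over the 5 members. mir-30a held 51.2% ± 0.4 in brain and 54.8% ± 5.9 in serum (SD, n = 3 each, exact permutation p = 0.4), and the mir-30c-1 shares overlapped (exact permutation p = 0.2), on 1, 2 and 2 serum reads.

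The serum ratios were set beside all tissues. The ratio of mir-30a to mir-30e was 5.96, 4.85 and 6.26 in serum, above each hemisphere and above every pool except lung. The ratio of mir-30d to mir-30a was 0.587, 0.804 and 0.465 in serum, above the highest pool, fat at 0.455, and above brain at 0.349 ± 0.011 (SD, n = 3). Neither ratio overlapped between brain and serum (exact permutation p = 0.1 for both, the smallest possible, and 0.1 after adjustment over 3 ratios). The third ratio, of mir-30c-2 to mir-30c-1, rests on 5 serum reads of mir-30c-1 in all. On the mature list miR-30d-5p again held a larger part of the 9 arms in serum, 30.9% ± 6.4 against 19.2% ± 0.5 in brain (SD, n = 3 each), with no overlap. Serum markers moved beside these values, and their part was not tested: hepatocyte mir-122 stood at 10340 to 142147 RPM and red-cell mir-451 at 2117 to 3909 RPM in serum, against 0 RPM and at most 8.76 RPM in brain.

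**Figure D5:**
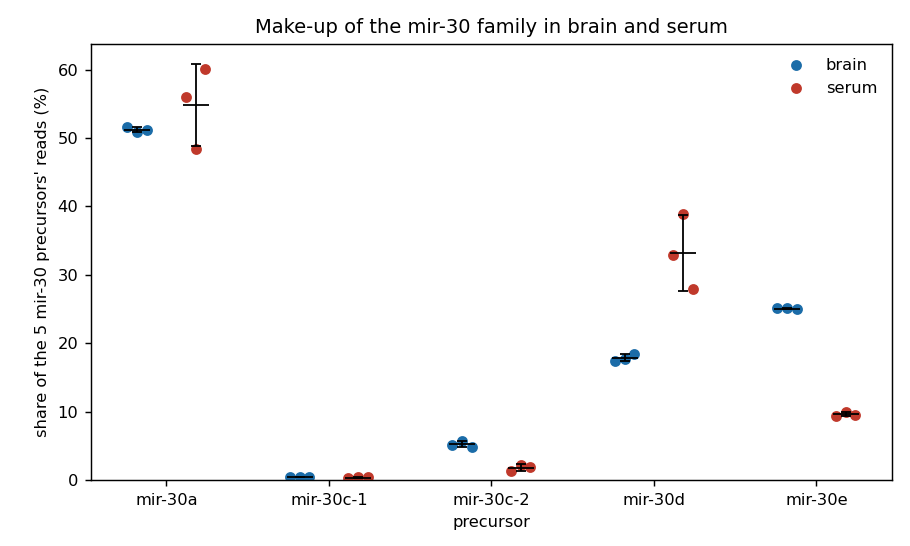
Share of each member in the reads of the 5 mir-30 precursors, in percent, in 3 brain and 3 serum libraries, with points for libraries and bars for the mean ± 1 SD. The serum libraries lie above brain for mir-30d (27.9% to 38.9% against 17.5% to 18.5%) and below it for mir-30e (9.40% to 9.98% against 24.97% to 25.21%) and mir-30c-2.

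In edgeR's quasi-likelihood test across all precursors, 63.4% of 235 tested passed an adjusted p of 0.05 between brain and serum. Of the 5 members, 2 were higher in brain and none was lower, where 44.7% of all tested were higher and 18.7% lower. The members' median log2 fold change was 0.58, against 2.15 over all 235. The 2 were mir-30e, with 15573, 15658 and 13887 RPM in brain and 3706, 3683 and 5422 RPM in serum (log2 fold change 1.72 ± 0.23 SE, adjusted p = 4.1e-05), and mir-30c-2, with 2748 to 3568 RPM in brain and 529 to 1135 RPM in serum (1.80 ± 0.27 SE, adjusted p = 9.6e-05). Both calls held under each alternative that could be fitted for them, 12 for mir-30e and 8 for mir-30c-2. With a mean of 7.33 serum reads, mir-30c-2 passed the count filter only through the hemispheres, where it was high. It could therefore not be fitted without a hemisphere, or with the minimum count required in every library. Its call was not tested under those settings.

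The other 3 members did not pass. mir-30a had 28441 to 31864 RPM in brain and 22102, 17860 and 33922 RPM in serum, so that the groups overlapped (0.24 ± 0.23 SE, adjusted p = 0.35). It was called higher in brain without a count filter, with 10 counts required in every library and without any 1 hemisphere. These settings moved the log2 fold changes of all precursors shared with the main fit by a median of 0.53, 1.22 and 0.89 to 1.00. mir-30d had 10263 to 11049 RPM in brain and 12970, 14362 and 15763 RPM in serum (-0.54 ± 0.23 SE, adjusted p = 0.054). It was called lower in brain in DESeq2 (-0.78, adjusted p = 7.3e-06) and in edgeR without the first (-0.57, adjusted p = 0.034) or the third serum library (-0.66, adjusted p = 0.013). Its direction turned when 10 counts were required in every library (0.69, adjusted p = 0.013) or when 1 hemisphere was left out (0.35 to 0.48). The first of these settings moved all shared precursors by a median of 1.22, and the second by 0.89 to 1.00. With 10 counts in every library, the median over all 51 precursors tested was also 0.69. Whether mir-30d itself turned was not tested. Of the 12 alternatives, 8 kept the main direction and 5 passed the threshold. Calls fell in both directions, and those for higher in brain included a fit without a hemisphere. mir-30c-1, with 104 to 380 reads in brain and 1 or 2 in serum, gave 0.58 ± 0.53 SE (adjusted p = 0.40). As a comparison, of 19 tested precursors on a list of broadly expressed miRNAs, 15 were higher in brain and 2 lower, with a median of 1.68.

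On the mature list 67% of 212 tested arms passed between brain and serum, 52.8% higher and 14.2% lower in brain. Of the 9 family arms, 3 were higher and 1 was lower. The 3 higher arms had fewer than 10 reads in every serum library, so they passed the count filter only through the hemispheres, where they were high. They could not be fitted without a hemisphere, or with the minimum count in every library. The share over all arms has the same limit, since only 50 of the 212 could be tested without a hemisphere. miR-30d-5p was lower in brain, with 4309, 4582 and 3243 RPM against 10436, 13671 and 14188 RPM in serum (log2 fold change -1.26 ± 0.38 SE, adjusted p = 0.0040). Without any 1 hemisphere, without a count filter or with 10 counts in every library, it kept its direction and lost the call (-0.50 to -0.20, adjusted p 0.11 to 0.46). These settings moved the log2 fold changes of all shared arms by a median of 0.64 to 1.01. miR-30e-5p was higher in brain (1.30 ± 0.50 SE, adjusted p = 0.021), on 2, 1 and 4 serum reads, and lost the call without the second serum library (adjusted p = 0.10), with library totals (0.18) and in DESeq2 (0.071). Only 8 alternatives could be fitted for this arm, none of them without a hemisphere, so its call was not tested there.

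The other 2 arms called, miR-30c-1-3p (adjusted p = 0.012) and miR-30c-2-3p (adjusted p = 0.0083), had 0 reads in all 3 serum libraries. Their brain means, 158 and 185 RPM, lie at about the level of 3 reads in all 17336 mature serum reads, 173 RPM, and would have given 2.74 and 3.21 reads. A difference between brain and serum was therefore not detectable for miR-30c-1-3p at this depth. The brain mean of miR-30c-2-3p stood 1.07-fold above that limit over the group. The limit covers counting error and not the spread between libraries, so this margin sets no firm lower bound. miR-30c-1-3p also lost its call in DESeq2 (adjusted p = 0.073) and without the third serum library (0.053). miR-30a-5p (-0.51 ± 0.38 SE, adjusted p = 0.23), miR-30a-3p, miR-30c-5p, miR-30d-3p and miR-30e-3p did not pass. Under alternatives some of them were called. miR-30a-5p and miR-30a-3p were lower in brain in DESeq2 (adjusted p = 0.0011 and 0.026) and with library totals (0.0023 and 0.035). miR-30e-3p was higher in brain with size factors (0.018), without a count filter (0.00011) and without the second serum library (0.017), and miR-30d-3p, with 0 serum reads, with size factors (0.044) and without a count filter (0.024).

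Brain was also set against the 14 pools, with the spread between tissues as the error. The hemispheres are 1 tissue counted as 3 libraries, so these p-values can be too small. Of 295 precursors tested, 42.7% passed, and none of the 5 members did. The members' log2 fold changes were between -1.33 ± 0.66 SE for mir-30a (adjusted p = 0.10) and -0.25 ± 0.50 SE for mir-30c-1 (adjusted p = 0.69), with a median of -0.76 against 0.17 over all tested. None of the members had an unadjusted p under 0.05. The sign depended on the scaling. With library totals in place of TMM factors, which moved the median of all precursors by 1.03, mir-30c-1, mir-30c-2 and mir-30d turned positive (0.84, 0.35 and 0.39), and in DESeq2, which moved it by -0.66, all 5 were called lower in brain. The broadly expressed list had 1 precursor higher and 4 lower of 19, with a median of -0.17.

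Of 290 mature arms tested against the pools, 44.1% passed, 20% higher and 24.1% lower in brain. Of the 9 family arms 1 passed, miR-30d-3p, which was lower in brain at 88.3, 74.2 and 91.6 RPM against a median of 135 RPM in the pools, ranging from 37.8 to 318 RPM, or to 213 RPM without the pancreas library (log2 fold change -1.78 ± 0.55 SE, adjusted p = 0.015). The hemispheres lay inside the range of the pools. The call was lost without any 1 hemisphere (adjusted p 0.12 to 0.15), without skeletal muscle (0.077), with the hemispheres summed (0.52), with library totals (0.37), with size factors (0.10) and without a count filter (0.050).

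mir-384, which carries the family's 5p seed outside the family, had another distribution. It stood at 1203, 1221 and 1115 RPM in the hemispheres, at 10.7 RPM or less in every pool, and at 1, 1 and 0 reads in serum. No pool overlapped the hemispheres. Against the pools the log2 fold change was 6.85 ± 0.90 SE (adjusted p = 7.8e-06), and against serum 3.82 ± 0.57 SE (adjusted p = 8.7e-05). Only 2 tissues, brain among them, held the minimum count of the filter. In both tests mir-384 thus passed the filter through the hemispheres, where it was high. The hemispheres are libraries of 1 tissue, so the p-value against the pools can be too small. The difference rests on the levels given above rather than on these p-values. Its seed-bearing arm, miR-384-5p, had 1252, 1300 and 1212 RPM of mature reads in brain, against 830, 836 and 589 RPM for miR-30e-5p, 400, 591 and 369 RPM for miR-30c-5p and 14486, 14808 and 10449 RPM for miR-30a-5p. Among the 5p arms with this seed and a printed sequence, miR-384-5p was thus second in every hemisphere. miR-30d-5p, a family arm for which no sequence was available, is left out of that ranking. Its brain mean was 4045 RPM, above miR-384-5p at 1255 RPM.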

How the data were processed

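Small RNA of 20 libraries was analysed. The authors purified serum miRNA with the miRNeasy Serum/Plasma kit and tissue miRNA with the miRNeasy Mini kit (Qiagen), prepared TruSeq small RNA libraries, sequenced them on a MiSeq, trimmed low-quality base calls, used Bowtie for alignment against the Rn5 assembly and counted in Partek software. The values they deposited are expected counts (estimated counts) per miRNA without normalization, in 3 annotations of the same reads. How reads matching several hairpins were assigned is not given in the sources used here. Counts were divided by the total of their own list (RPM). Those tested were rounded and compared with edgeR 4.0.16 (R 4.3.3), quasi-likelihood test, TMM factors, at least 10 counts in at least 3 libraries, Benjamini-Hochberg adjustment over all features and a threshold of 0.05. DESeq2 1.42.0 was an alternative. Each SE was obtained as the fold change (log2) over the square root of F. Shares and ratios were compared by exact two-sided permutation tests of 3 against 3 libraries (SciPy 1.17.1). Correlations across tissues are descriptions and carry no p. The procedure was tested on simulated counts.

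Named were the members and their arms, the other precursor with the family's 5p seed, the 5 outside precursors most like the summed family, the genomic neighbours, and markers on which a label check turned. Members and lists were chosen with earlier results of these data known. The study's methods state that serum and brain came from the same animals, so replicate numbers were used as a block in an alternative. Same-numbered libraries deviated together with r = 0.096, -0.14 and -0.035 over 73 precursors. Nothing in the labels says how the serum libraries divide over animals, and the spread between them may be partly technical. Alternatives covered scaling, filters, each library left out, the block, summed hemispheres, list totals and pseudocounts (1 RPM in the main values). Leaving out the pancreas library, taking mir-143 and mir-192 out of the total, and the 5p arms in the ratio comparison were added after seeing the data. Sequences, chromosomes and neighbours come from RefSeq on GRCr8, and no sequence was placed on Rn5.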

Additional observations from a re-analysis of the deposited data

How the results depend on the processing

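The number of precursors called was 149 between brain and serum and 126 between brain and the pools, and of mature arms 142 and 128. With 10 counts required in every library these fell to 46, 32, 26 and 29. With the hemispheres summed to 1 library, the comparisons with the pools gave 12 precursors and 7 arms. Leaving out single libraries gave 55 to 141, 38 to 148, 36 to 128 and 39 to 140, with the lowest counts each time without a hemisphere. Between brain and serum that alternative tests 68 precursors in place of 235, since the filter then needs a serum library. The replicate block gave 141 precursors and 125 arms and changed no call of a member.

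Between brain and serum, mir-30d turned to 0.69 (log2) with 10 counts in every library and ran from -0.66 to 0.48 without single libraries. miR-30a-5p turned to 0.42 without a filter and 0.55 with 10 counts in every library, and ran from -0.47 to 0.29 without single libraries. miR-30a-3p turned to 0.40 without a filter (-0.48 to 0.36 without single libraries), and miR-30c-5p to 0.74 without a filter and 0.061 with size factors (-0.38 to 0.19). Against the pools, library totals turned mir-30c-1, mir-30c-2 and mir-30d to 0.84, 0.35 and 0.39 and miR-30c-1-3p, miR-30c-5p, miR-30d-5p and miR-30e-3p to 0.53, 0.70, 0.35 and 0.16. Size factors turned miR-30c-1-3p, miR-30c-5p and miR-30d-5p to 0.11, 0.28 and 0.035. With 10 counts in every library mir-30c-1 and mir-30d stood at 0.40 and 0.0081. With the hemispheres summed miR-30c-1-3p and miR-30c-5p stood at 0.00010 and 0.0042, and without single libraries they ran from -0.60 to 0.0011 and from -0.46 to 0.18. In the same fits all shared features moved too. Between brain and serum, the median shift of the arms was 0.87 without a filter and 1.01 with 10 counts in every library. Against the pools it was 1.03 for precursors and 1.05 for arms with library totals, and 0.66 for arms with size factors. The cause of these turns was not tested.

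The family's share in brain minus serum, -2.11 percentage points on the mature list, was 1.56 on the precursor and 1.92 on the RefSeq list, and -2.44 to -1.56 without single libraries. The difference in 5p share, brain minus serum, ran from -0.32 to 0.60 points for miR-30a and from -2.78 to 14.4 for miR-30e without single libraries. The fold between highest and lowest tissue on the mature list, 9.82, was 7.58 with TMM, 8.85 with size factors, 6.83 on the precursor list, 11.6 on the RefSeq list and 6.74 without mir-143 and mir-192. Differences of the members' shares of the family kept their direction without any 1 library. Serum depth limits the arms most.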
